A study of Mus musculus with 23 samples.

Results

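Brain RNA of mice that carried Csf1R-G793A was compared with that of wild-type (WT) mice while both ate control chow, free of inhibitor. The comparison took its libraries by their titles, all 4 libraries of the G793A control group and all 3 of the WT control group, which is 7 of the 23 libraries in the series. Both groups were C57BL/6J mice kept on control chow for 14 days and differed, by their labels, only in genotype. The other 16 libraries came from the same 2 genotypes on chow with PLX3397 or PLX5622, small-molecule inhibitors of the receptor, and enter here only where a gene is set beside its values on those diets. The labels give no sex, age, zygosity, brain region or batch, nor do they say whether the libraries of a group are different mice. The spread behind each p-value is therefore that of these libraries, and may be technical.

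CSF1R is the receptor tyrosine kinase that microglia and other macrophages need to survive. It sits on the cell surface and is activated by either of its ligands, CSF1 and interleukin 34, and drugs that block its kinase domain deplete microglia from the brain. G793A lies in the mouse receptor and, by its name, puts an alanine in the place of a glycine. The series asked whether this change alters the brain transcriptome by itself.

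The 7 libraries held 30.7 to 48.2 M (mega-counts) of estimated counts each. Levels are counts scaled to library size (CPM), and fold changes are log2 values of G793A over WT with a standard error (SE) from 1 edgeR quasi-likelihood model of all 23 libraries. Markers of brain tissue were present in every library, with summed levels of 5210 to 6940 CPM for 14 excitatory neuron genes, 7440 to 11400 CPM for 15 astrocyte genes and 5300 to 7260 CPM for 16 genes of myelinating oligodendrocytes. The 19 homeostatic microglia genes summed to 1060 to 1600 CPM. Markers that differ with dissection varied within each genotype: 12 choroid plexus genes summed to 671 to 1860 CPM over the G793A libraries and to 923 to 1450 CPM over the WT libraries, and WT replicate 3 stood above the other WT libraries in the thalamus list (690 CPM against 389 and 405 CPM) and the cerebellum list (207 CPM against 124 and 138 CPM). The Y-linked genes measured did not exceed 1.14 CPM in any of the 7 libraries.

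No gene passed a Benjamini-Hochberg adjusted p under 0.05 in edgeR. Of 16209 genes tested, 0 (0%) were called, and the smallest adjusted p was 0.358. At an unadjusted p under 0.05 there were 1803 genes (11.1%), of which 956 (5.9%) were higher and 847 (5.23%) lower in G793A, where 810 would be the count at 5%. That count was 851 with the 7 control libraries fitted alone, and with 1 library left out it ran from 940 (without G793A replicate 3) to 2984 (without G793A replicate 2). DESeq2 also called 0 genes, with a smallest adjusted p of 0.0976 and 1851 genes at an unadjusted p under 0.05. The median log2 fold change over all genes was -0.01, with 7827 genes positive and 8382 negative. In 440 genes (2.71%) every G793A library was above every WT library, and in 472 genes (2.91%) every one was below, so that 912 genes (5.63%) did not overlap.

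Csf1r, the gene that carries the substitution, was at 95.1, 93.4 and 92.8 CPM in the WT libraries and at 78.5, 78.9, 88.4 and 79.8 CPM in the G793A libraries. The groups did not overlap, and replicate 3 of G793A lay nearest to WT. The means were 93.8 ± 1.23 CPM (SD, n = 3) and 81.4 ± 4.69 CPM (SD, n = 4), a log2 fold change of -0.20 ± 0.19 (SE) with a 95% interval from -0.61 to 0.20 and an adjusted p of 0.729 in edgeR. In an exact two-sided permutation test of the difference in mean log2 CPM, -0.21, p was 0.0571, and 0.171 after Benjamini-Hochberg adjustment over the 3 genes tested this way. The smallest p that the 35 arrangements of 7 libraries allow is 0.0286. The spread in the model takes in the inhibitor diets. With the 7 control libraries fitted alone the log2 fold change was -0.21 ± 0.07 (SE).

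On the inhibitor diets the same genotype difference in Csf1r was 1.68 ± 0.19 (SE) with PLX3397 and 2.54 ± 0.20 (SE) with PLX5622. Over all genes, 151 (0.932%) were higher and 1 (0.00617%) lower in G793A with PLX3397 at an adjusted p under 0.05 in edgeR, and 177 (1.09%) were higher and 0 lower with PLX5622. The change of the genotype difference from control chow was itself tested, as an interaction in edgeR that 90 genes (0.555%) passed for PLX3397 and 131 (0.808%) for PLX5622. For Csf1r it was 1.88 ± 0.27 (SE, adjusted p = 0.000803) for PLX3397 and 2.75 ± 0.27 (SE, adjusted p = 5.46e-06) for PLX5622. The genotype difference in Csf1r was thus above that on control chow with either inhibitor. Mean levels were 23.3 CPM in WT and 74.4 CPM in G793A with PLX3397, and 12.2 and 71.6 CPM with PLX5622. On control chow they were 93.8 and 81.4 CPM. The WT level was thus far lower on the inhibitor diets, while the G793A level stayed nearer to its control-chow mean.

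Neither ligand of the receptor had a difference larger than the spread between libraries. Csf1 was at 20.8, 21.8 and 23.0 CPM in WT and at 20.6, 20.7, 22.6 and 20.5 CPM in G793A, a log2 fold change of -0.05 ± 0.07 (SE, exact permutation p = 0.286, 0.429 adjusted). Il34, the ligand made chiefly by neurons, was at 51.5, 55.3 and 43.5 CPM in WT and at 55.5, 52.7, 52.9 and 47.3 CPM in G793A, a log2 fold change of 0.06 ± 0.08 (SE, exact permutation p = 0.571, 0.571 adjusted). Both ligands overlapped between groups, and the sign for Il34 turned without WT replicate 3 (-0.04). None of the 10 genes for the related class III receptor kinases and their ligands had an unadjusted p under 0.05, against 11.1% of all genes. Their log2 fold changes ran from -0.12 to 0.30, with the highest at Flt3l, the ligand of the FLT3 receptor. Flt3l was at 1.07, 1.16 and 1.24 CPM in WT and at 1.32, 1.26, 1.54 and 1.59 CPM in G793A, without overlap, although in the deposited stabilised values its sign turned (-0.01).

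**Figure D1:**
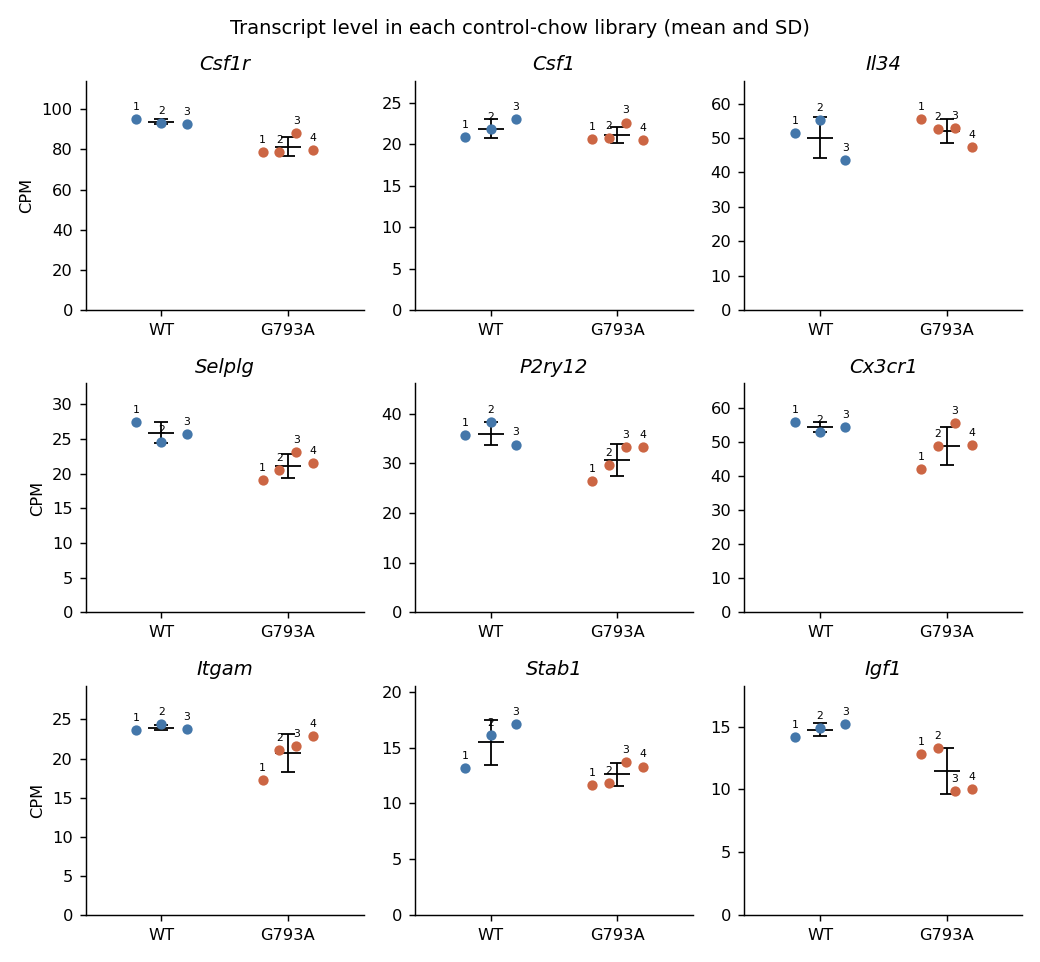
Transcript level in CPM (vertical axis, linear from 0) of 9 genes in each WT (3 points) and G793A (4 points) control-chow library, with the replicate number beside each point and the mean and SD as black bars. Csf1r, Selplg, P2ry12, Itgam and Igf1 do not overlap between the groups, while Csf1, Il34, Cx3cr1 and Stab1 do.

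Microglial genes had small negative fold changes, and none passed. Among the 19 homeostatic microglia genes 16 had a negative and 3 a positive log2 fold change, with a median of -0.11 and a range of -0.45 to 0.22. None of the 19 had an unadjusted p under 0.05, against 11.1% of all genes. As for Csf1r, the spread in the model takes in the inhibitor diets, on which these genes differed widely between genotypes. Their p-values are therefore not on the same footing as those of all genes. In 3 of the 19 every G793A library was below every WT library, against 2.91% of all genes. These 3 were Selplg, the surface ligand of P-selectin, and the purinergic receptors P2ry12 and P2ry13. Selplg was at 27.5, 24.5 and 25.7 CPM in WT and at 19.1, 20.5, 23.1 and 21.6 CPM in G793A, a log2 fold change of -0.30 ± 0.20 (SE, edgeR adjusted p = 0.592). P2ry12, which senses ATP and ADP released by damaged cells, was at 35.7, 38.4 and 33.8 CPM in WT and at 26.5, 29.7, 33.2 and 33.2 CPM in G793A, a log2 fold change of -0.23 ± 0.17 (SE). The gap between the lowest WT and the highest G793A library was small in P2ry12 and wider in Selplg. P2ry13 had a log2 fold change of -0.11 ± 0.20 (SE). In a bulk sample fewer cells of a type and less RNA per cell cannot be told apart.

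The other defining markers of microglia overlapped between groups. Cx3cr1, the fractalkine receptor, was at 55.9, 53.0 and 54.2 CPM in WT and at 42.0, 48.7, 55.5 and 49.1 CPM in G793A. Tmem119, a microglial membrane protein, was at 21.4, 20.4 and 18.6 CPM in WT and at 16.4, 17.0, 22.2 and 17.6 CPM in G793A. For both genes replicate 1 of G793A was the lowest and replicate 3 was within or above the WT values. Siglech, a lectin of microglia, had a log2 fold change of -0.20 ± 0.16 (SE). The mean log2 level of the list, set against the WT mean, was -0.26, -0.21, 0.09 and -0.11 in the 4 G793A libraries and 0.02, 0.06 and -0.08 in the WT libraries, so the groups overlapped. On the inhibitor diets the median genotype difference of the same 19 genes was 1.56 with PLX3397 and 2.13 with PLX5622.

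Genes shared by all myeloid cells were also mostly negative. Of 20 pan-myeloid genes 16 were negative and 4 positive, with a median of -0.09. None had an unadjusted p under 0.05 in the model, whose spread takes in the inhibitor diets here too. Itgam, which encodes the integrin CD11b, was at 23.7, 24.4 and 23.8 CPM in WT and at 17.3, 21.1, 21.6 and 22.9 CPM in G793A, without overlap and with a log2 fold change of -0.21 ± 0.19 (SE, edgeR adjusted p = 0.720). Among 12 myeloid transcription factors 10 were negative, and 1, Runx1, had an unadjusted p under 0.05, against 11.1% of all genes. Runx1, a factor of blood and macrophage development, was at 1.27, 1.10 and 1.09 CPM in WT and at 0.760, 0.992, 0.919 and 0.641 CPM in G793A, without overlap. Among 18 genes of kinase signalling in myeloid cells 16 were negative, and 1, Cbl, had an unadjusted p under 0.05, against the same 11.1% of all genes. Cbl, a ubiquitin ligase that acts on activated receptors and is expressed in many brain cells, had a log2 fold change of -0.27 ± 0.09 (SE), and of -0.12 once a trend along transcript length and GC content, described below, was removed.

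Genes of disease-associated microglia were mostly positive, unlike the myeloid lists above. Of 18 tested, 14 were positive and 4 negative, with a median of 0.07, and of 0.03 with the trend along length and GC removed. Apoe, the lipid carrier that astrocytes also make, was at 1180, 1060 and 1150 CPM in WT and at 1190, 1110, 1650 and 1400 CPM in G793A, a log2 fold change of 0.24 ± 0.10 (SE, edgeR adjusted p = 0.365). G793A replicates 3 and 4 were high, replicate 1 was just above the highest WT library and replicate 2 was within the WT range, and with the trend removed the fold change was 0.13. Igf1, a growth factor that neurons also make, was at 14.2, 14.9 and 15.2 CPM in WT and at 12.8, 13.3, 9.85 and 10 CPM in G793A, without overlap, a log2 fold change of -0.35 ± 0.11 (SE, edgeR adjusted p = 0.358). Among 12 complement genes the median was -0.12, among 20 interferon-stimulated genes -0.14 and among 14 genes of antigen presentation -0.04. None in these lists had an unadjusted p under 0.05, against 11.1% of all genes. The spread in the model takes in the inhibitor diets. On them the complement genes had a median genotype difference of 0.38 with PLX3397 and 0.37 with PLX5622.

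Markers of border-associated macrophages, the macrophages of the meninges and vessel walls, had the lowest median of the myeloid lists, -0.25 over 14 genes, with 10 negative and 4 positive. Their summed level was 40.9, 42.6 and 49.1 CPM in the WT libraries and 34.3, 35.8, 40.6 and 39.9 CPM in the G793A libraries, without overlap. The highest G793A library was within 1 CPM of the lowest WT library. For this list too the spread in the model takes in the inhibitor diets. On them its median genotype difference was 1.24 with PLX3397 and 1.51 with PLX5622. The p-values of its members are therefore not on the same footing as those of all genes. Stab1, a scavenger receptor, was the 1 member of 14 at an unadjusted p under 0.05, against 11.1% of all genes. It was at 13.2, 16.1 and 17.1 CPM in WT and at 11.6, 11.8, 13.7 and 13.3 CPM in G793A, with a log2 fold change of -0.30 ± 0.12 (SE, edgeR adjusted p = 0.364). Cd163, the scavenger receptor for haemoglobin, and the folate receptor Folr2 were below WT without overlap, 2 of 14 genes against 2.91% of all genes. Their edgeR adjusted p values were 0.558 and 0.722, and Folr2 was low, at 0.319 to 0.644 CPM. Cd163 was at 2.85, 2.50 and 3.10 CPM in WT and at 2.36, 2.13, 2.40 and 2.05 CPM in G793A. With the trend along length and GC removed the median of the list was -0.20.

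Genes of infiltrating leukocytes were low in all 7 libraries, with a summed level of 10.8 to 12.1 CPM in WT and 10.7 to 21.0 CPM in G793A over 15 genes. The median log2 fold change of the 11 tested was 0.54, and none had an unadjusted p under 0.05, against 11.1% of all genes. S100a9, a neutrophil gene, was at 0.310, 0.0891 and 0.0248 CPM in WT and at 0.491, 0.971, 1.05 and 0.397 CPM in G793A, without overlap, with a log2 fold change of 2.38 ± 1.33 (SE, edgeR adjusted p = 0.515). It was chosen after its values were seen, and rests on few counts.

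Most lists for the other brain cells had at most 2 members at an unadjusted p under 0.05, and inhibitory neurons had 3 of 13. Of 15 astrocyte genes 13 were positive, with a median of 0.17 and none under that threshold, and the list stood at 0.43 and 0.25 above the WT mean in G793A replicates 3 and 4 and at -0.05 and -0.12 in replicates 1 and 2. Lists for oligodendrocyte precursors (13 genes, median -0.02), committed precursors (12 genes, -0.05), myelinating oligodendrocytes (16 genes, -0.03), endothelium (16 genes, 0.04) and excitatory neurons (14 genes, -0.01) had medians near that of all genes. Nkx6-2, a transcription factor of myelinating oligodendrocytes, was at 3.21, 1.66 and 1.73 CPM in WT and at 3.46, 3.70, 4.07 and 2.81 CPM in G793A, a log2 fold change of 0.67 ± 0.22 (SE, edgeR adjusted p = 0.358). WT replicate 1 overlapped the G793A libraries. Of 13 inhibitory neuron genes 3 had an unadjusted p under 0.05, all higher, against 5.9% of all genes. These were the membrane protein gene Lamp5 and the neuropeptide genes Npy and Cck, at log2 fold changes of 0.30, 0.24 and 0.27. All of them were lowest in WT replicate 3. With the trend along length and GC removed they were at 0.26, 0.08 and 0.12, with 1 of the 3 under that threshold, and the median of the list went from 0.09 to -0.02.

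The hippocampus list was the neuronal list with the most members at an unadjusted p under 0.05, 4 of 10 against 11.1% of all genes, and these did not share a direction. Prox1, a factor of dentate granule cells, Lct and Zbtb20 were lower (log2 fold changes of -0.31 ± 0.11, -0.67 ± 0.27 and -0.36 ± 0.16, SE), and Spink8, a gene of pyramidal neurons, was higher. Spink8 was at 1.49, 1.96 and 0.892 CPM in WT and at 2.55, 2.09, 3.45 and 2.78 CPM in G793A, a log2 fold change of 0.91 ± 0.28 (SE, edgeR adjusted p = 0.358). With the trend along length and GC removed the values for Prox1 and Zbtb20 were -0.20 and -0.09, while Lct stayed at -0.60 and Spink8 at 0.77. Among 16 clock genes 1 was higher and 1 lower at an unadjusted p under 0.05, against 11.1% of all genes. The same 2 were those without overlap between groups, against 5.63% of all genes. Per2, a core repressor of the circadian clock, was at -0.41 ± 0.13 (SE), and Dbp, a clock output gene, at 0.22 ± 0.10 (SE). With the trend removed these were -0.36 and 0.13. The 13 immediate early genes had a median of 0.25, but spanned -0.50 to 0.76 on the list's log2 scale among the WT libraries alone.

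**Figure D2:**
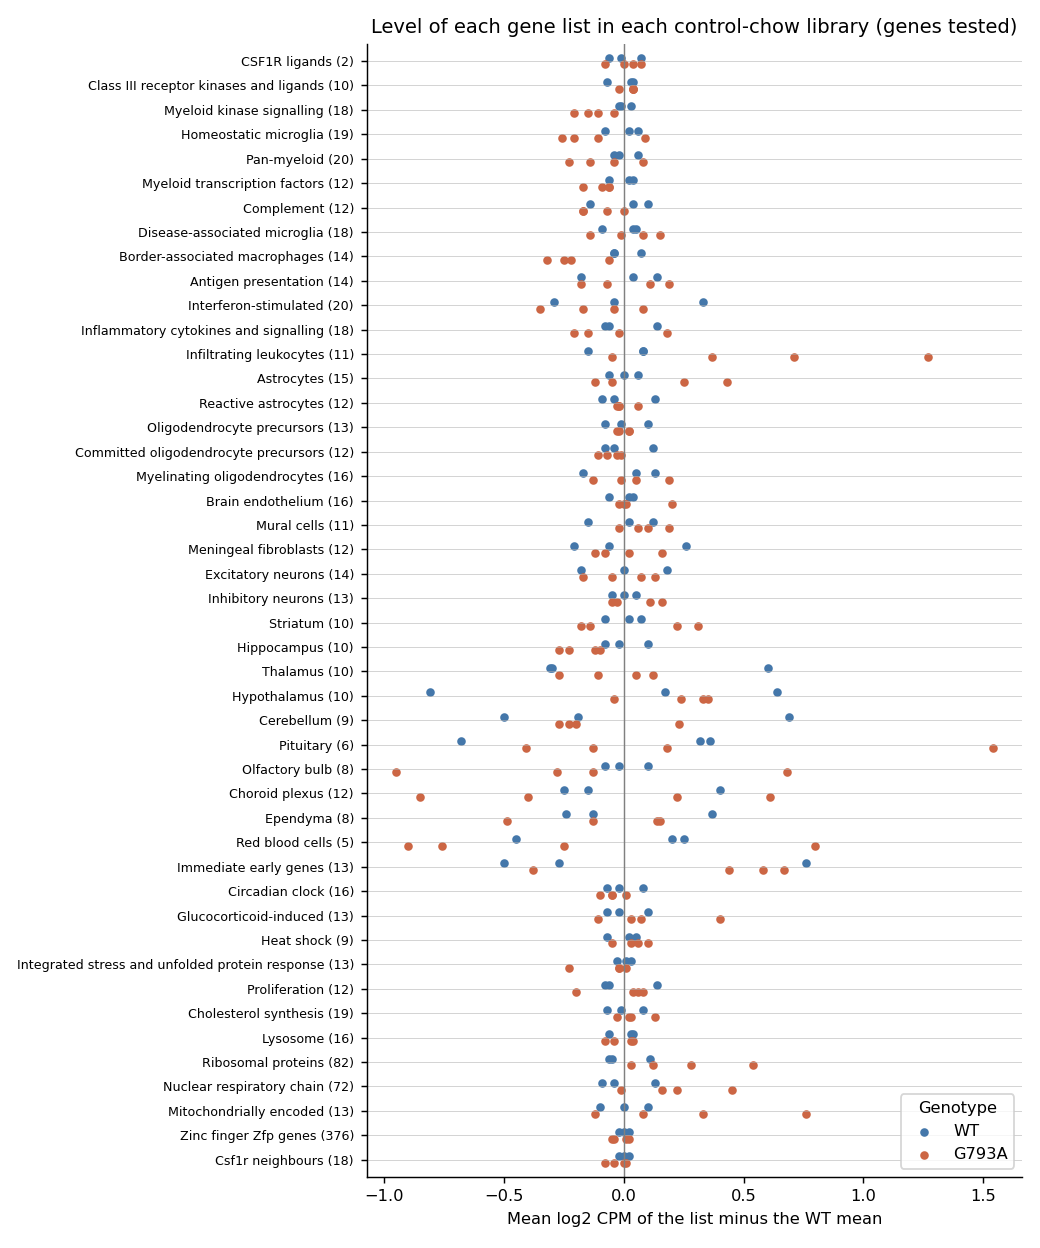
Mean log2 CPM of each gene list minus its mean over the WT libraries (horizontal axis) in each WT and G793A control-chow library, with the number of genes tested in brackets. The border-associated macrophage, myeloid kinase signalling and hippocampus lists separate the genotypes narrowly, while the thalamus, hypothalamus, cerebellum and choroid plexus lists spread widely within a genotype.

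The lists with the most members at an unadjusted p under 0.05 were those of the ribosome and the respiratory chain, whose transcripts are short and abundant. Of 84 cytosolic ribosomal protein genes 82 were tested, 81 of them positive, with a median log2 fold change of 0.26, and 68 had an unadjusted p under 0.05, all higher, against 5.9% of all genes. Of 72 nuclear genes of the respiratory chain 71 were positive, with a median of 0.22, and 54 had an unadjusted p under 0.05, all higher. Rpl41, a protein of the large ribosomal subunit, was at 243, 195 and 188 CPM in WT and at 261, 234, 374 and 284 CPM in G793A, a log2 fold change of 0.47 ± 0.12 (SE, edgeR adjusted p = 0.358). Ndufa6, a subunit of complex I, was at 51.8, 44.9 and 47.2 CPM in WT and at 58.7, 48.3, 72.5 and 63.5 CPM in G793A. With the trend removed the log2 fold changes of Rpl41 and Ndufa6 were 0.29 and 0.17, the latter against 0.34. In both genes G793A replicate 3 was highest and replicate 2 lay within the WT range.

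Both lists had medians nearer to 0 on the inhibitor diets, a difference that was not tested. The median genotype difference of the ribosomal protein genes was 0.12 with PLX3397 and 0.07 with PLX5622, and that of the respiratory chain genes 0.07 and 0.04. On control chow, the level of the ribosomal protein list against the WT mean was 0.12, 0.03, 0.54 and 0.28 in the G793A libraries and 0.11, -0.06 and -0.05 in the WT libraries. The groups overlapped, with WT replicate 1 at the level of G793A replicate 1. The 13 genes of the mitochondrial genome were all positive (0.23 to 0.41) and none had an unadjusted p under 0.05, against 11.1% of all genes. Their summed level was 45200, 38800 and 41000 CPM in WT and 43200, 37500, 71600 and 52300 CPM in G793A, so that G793A replicates 3 and 4 stood above the rest.

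The genotype difference followed transcript length. Genes were placed in 10 bins of 1591 genes by length. Lengths, from a mouse annotation of another build than the one the counts were made on, were matched by symbol for 15910 genes, 98.2% of those tested. In the bin with the shortest transcripts (204 to 1317 bases) the median log2 fold change was 0.15, and 29.4% of genes had an unadjusted p under 0.05 and were higher against 0.566% lower. In the bin with the longest (6773 to 106824 bases) the median was -0.12, and 0.44% were higher against 23.1% lower. The medians fell in order from the first bin to the last. Ribosomal protein genes had a median transcript length of 940 bases, respiratory chain genes of 838 bases, and all genes tested of 3161 bases.

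A gap was taken for each library, the median log2 level of the shortest bin minus that of the longest. Each gene was first set against its mean over the groups. The gap was 0.13, -0.15 and -0.15 in WT and 0.24, -0.06, 0.52 and 0.20 in G793A. WT replicate 1 was therefore above G793A replicate 2, and replicate 3 of G793A was the farthest from all. On PLX3397 the gap was -0.15 to -0.08 in WT and -0.07 to 0.16 in G793A, and on PLX5622 it was -0.13 to 0.02 and -0.09 to 0.05. When each library's trend along length and GC content was removed, the bin medians ran from 0.03 to -0.01, 984 genes had an unadjusted p under 0.05 (562 higher, 3.47%, and 422 lower, 2.6%) and 0 genes passed. The ribosomal protein median was then 0.12, with 33 genes higher and 1 lower at an unadjusted p under 0.05, and the respiratory chain median 0.08, with 22 higher. The medians for microglia (-0.12) and pan-myeloid genes (-0.13) were no nearer to 0 than before.

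**Figure D3:**
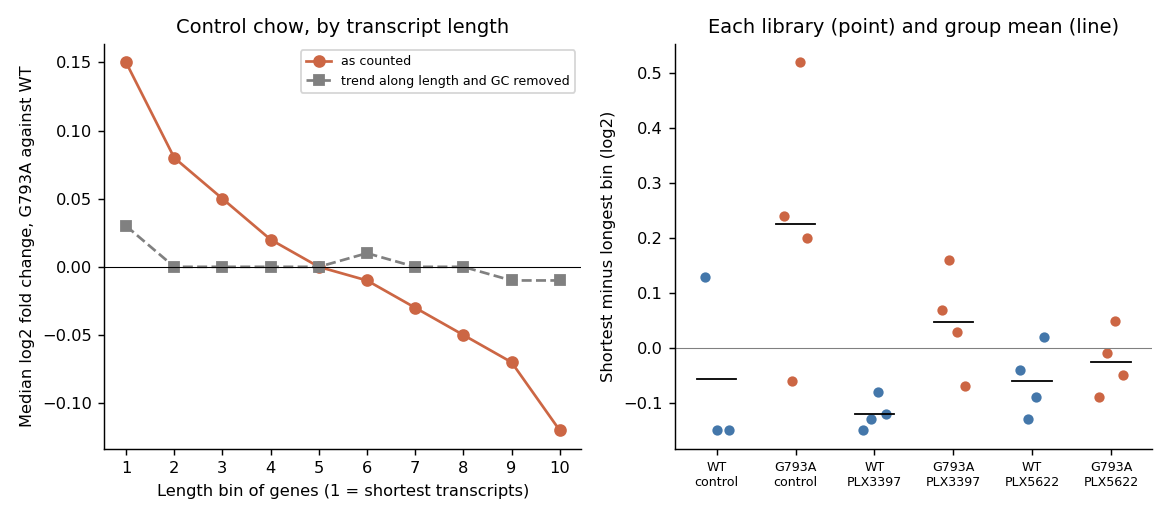
Left, the median log2 fold change of G793A against WT on control chow in each of 10 bins of genes by transcript length, as counted and with each library's trend along length and GC removed. Right, the median log2 level of the shortest bin minus that of the longest in each library of the 6 groups, where G793A control libraries spread from -0.06 to 0.52 and WT control libraries from -0.15 to 0.13.

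The count of calls depended on 1 library. Without G793A replicate 2, the G793A library whose length gap was nearest to that of WT replicates 2 and 3, 375 of 16190 genes passed in edgeR, 191 higher (1.18%) and 184 lower (1.14%). Leaving out any other of the 7 libraries gave 0 calls. The 191 higher genes had a median transcript length of 950 bases and the 184 lower genes of 8171 bases, and 370 of the 375 had an unadjusted p under 0.05 with all libraries in the fit. With replicate 2 left out and the trend along length and GC removed as well, 0 genes passed and the smallest adjusted p was 0.162.

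The higher calls included 31 ribosomal protein genes and 28 respiratory chain genes, among them Ndufa6 (log2 fold change 0.44), Ndufa2 (0.46) and Atp5l (0.42). Cops9, a subunit of the COP9 signalosome, was at 0.60 and Snrpe, a spliceosome core protein, at 0.42. The lower calls included genes of very long transcripts. Among them were Dmxl1, which helps assemble the vacuolar proton pump (-0.36), Kmt2a, a histone methyltransferase (-0.49), Kdm7a, a histone demethylase (-0.41), and Nfat5, the factor of the osmotic stress response (-0.45). Kdm7a shows the pattern by library, with 84.0, 99.5 and 86.5 CPM in WT and 67.8, 92.5, 65.4 and 69.5 CPM in G793A, where replicate 2 alone lay inside the WT range. Of the homeostatic microglia, pan-myeloid and border-associated macrophage genes, 0 passed without replicate 2. Over all genes 1.18% passed as higher and 1.14% as lower. At that share, lists of 19, 20 and 14 genes would often hold no call. The spread for these genes also takes in the inhibitor diets, so the count of 0 says little about them. Cbl (-0.37) of the 18 myeloid kinase signalling genes, Igf1 (-0.44) of the 18 disease-associated microglia genes and the clock gene Per2 (-0.52) were among the lower calls. These genes were named after their values were seen, from those with the smallest adjusted p without replicate 2.

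**Figure D4:**
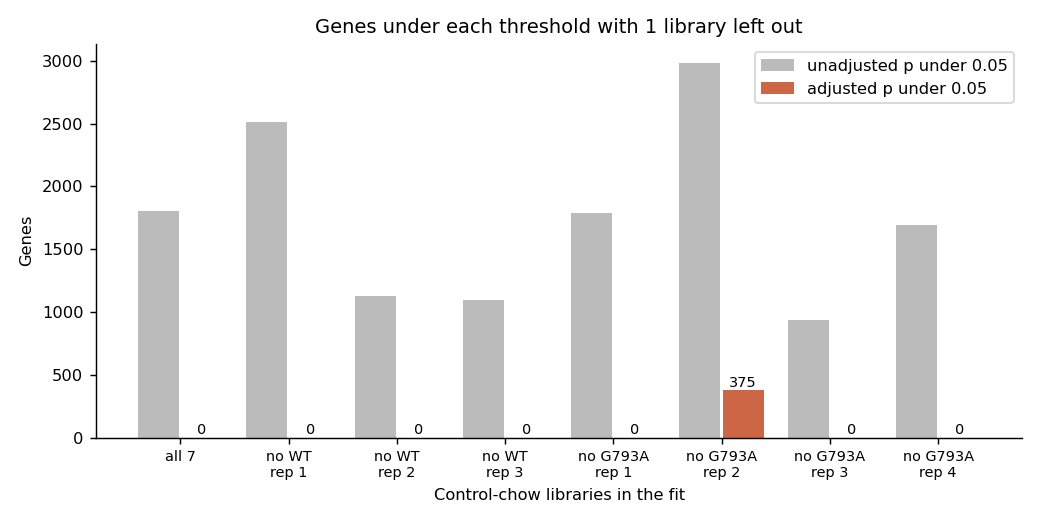
Number of genes (vertical axis) at an unadjusted p under 0.05 (grey) and at an adjusted p under 0.05 (orange) in edgeR with all 7 control-chow libraries and with each left out in turn. Only the fit without G793A replicate 2 gave calls, 375.

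The genes with the smallest p in each direction, 10 and 10 among those at a mean of 1 CPM or more, each had an edgeR adjusted p of 0.358. Fam76b had the lowest p. It was at 4.65, 5.70 and 5.30 CPM in WT and at 9.84, 7.73, 8.50 and 7.36 CPM in G793A, a log2 fold change of 0.68 ± 0.15 (SE) that was 0.72 with the trend removed. Zfp995 and Zfp771, genes for zinc finger proteins, were at 0.57 ± 0.13 and 0.46 ± 0.10 (SE). The histone H2B gene H2bu2 (0.40), Arhgdig, an inhibitor of small GTPase cycling (0.36), Cavin3, a caveolar coat protein (0.35), and Mrpl2, a mitochondrial ribosomal protein (0.23), were also among the higher genes, with Tmem256 (0.45), Sft2d1 (0.31) and Tmem128 (0.27).

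Among the lower genes, Dusp4, a phosphatase that switches off MAP kinases, had the largest difference. It was at 15.2, 18.3 and 15.2 CPM in WT and at 10.7, 11.4, 11.6 and 10.3 CPM in G793A, a log2 fold change of -0.56 ± 0.14 (SE) that was -0.58 with the trend removed. Rara, the retinoic acid receptor alpha, was at 10.9, 12.9 and 9.61 CPM in WT and at 7.85, 8.47, 8.37 and 7.63 CPM in G793A, a log2 fold change of -0.46 ± 0.12 (SE). Galnt7, an enzyme that starts O-linked glycans, was at 15.1, 14.2 and 14.9 CPM in WT and at 11.4, 12.1, 11.2 and 10.5 CPM in G793A, a log2 fold change of -0.38 ± 0.09 (SE). None of these genes overlapped between groups. The others were the zinc finger gene Zfp536 (-0.36), the argonaute gene Ago3 (-0.36), the ubiquitin-activating enzyme gene Uba6 (-0.35), the kinase gene Map3k13 (-0.35), the splicing factor gene Rbm5 (-0.31), the neuregulin receptor gene Erbb4 (-0.31) and Ccdc93 (-0.22).

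With the trend along length and GC removed, the median of the 10 higher genes went from 0.38 to 0.26 and that of the 10 lower genes from -0.36 to -0.28, and all 20 kept an unadjusted p under 0.05. Several moved by more than that, with Zfp771 at 0.29, Arhgdig at 0.21, Tmem256 at 0.26, Mrpl2 at 0.10, Ago3 at -0.16, Erbb4 at -0.15 and Ccdc93 at -0.12.

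Of the 20, 8 of the higher and 9 of the lower genes did not overlap between groups, which their choice by p favours. The 9 higher genes with a known transcript length ran from 492 to 3702 bases, and the 10 lower from 2740 to 15595 bases. Their genotype difference on the inhibitor diets comes from 16 other libraries. The sign was the same on PLX3397 for 8 of the 10 higher and 7 of the 10 lower genes, with median log2 fold changes of 0.11 and -0.04 against 0.38 and -0.36 on control chow. On PLX5622 it was the same for 4 and 5, with medians of 0 and -0.01. On PLX3397 1 of the 20 had an unadjusted p under 0.05 (Ccdc93, -0.14 ± 0.05, SE), against 7.95% of all genes, and on PLX5622 1 (Tmem128, 0.13 ± 0.06, SE), against 5.53%. For Galnt7 the genotype difference on PLX5622 was 0.52 ± 0.12 (SE) above that on control chow, an interaction that passed in edgeR (adjusted p = 0.0332). The control-chow difference by which Galnt7 was chosen enters this interaction, which favours a large value.

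**Figure D5:**
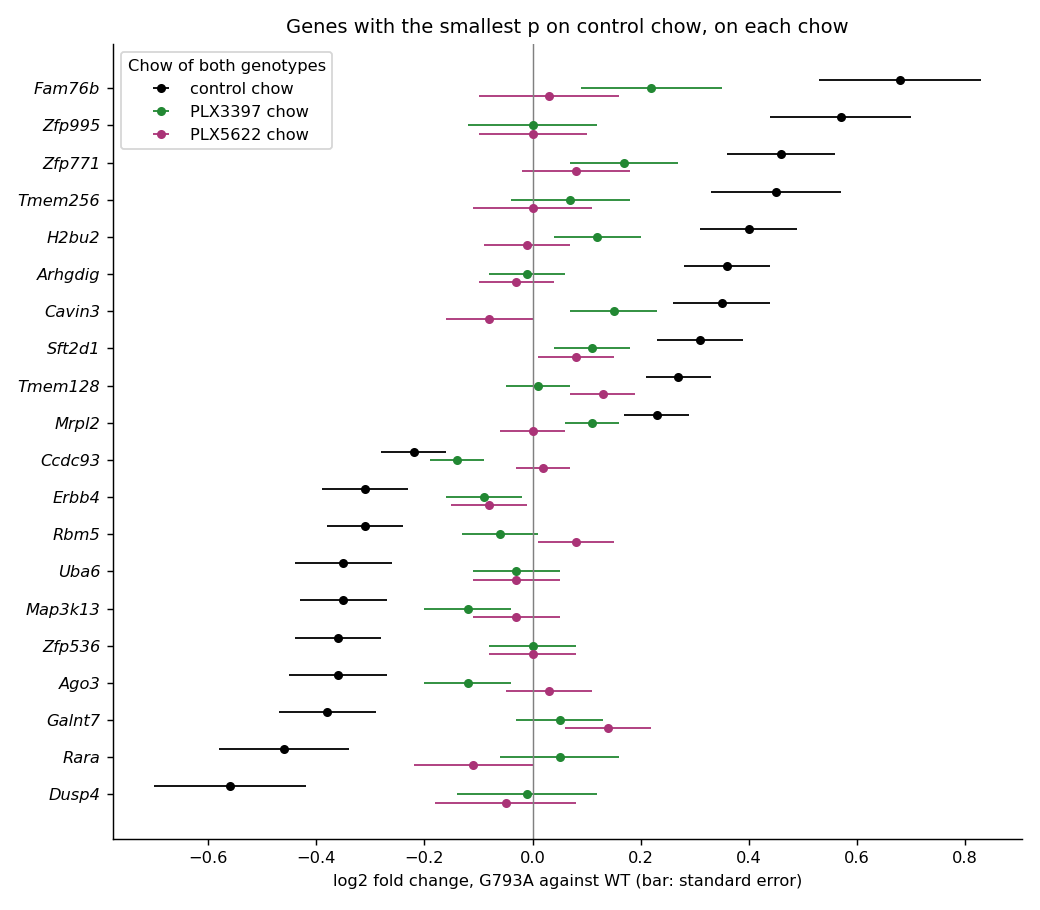
log2 fold change of G793A against WT with its standard error (horizontal axis) for the 20 genes with the smallest p on control chow, on control, PLX3397 and PLX5622 chow. The control-chow values (black) lie between 0.22 and 0.68 in size, and most values on the inhibitor diets lie near 0.

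At a mean of 1 CPM or more, with predicted or clone-named genes left out, the largest fold changes without overlap between groups were in genes of low level. Fgf3, a fibroblast growth factor gene, was at 0.789, 0.683 and 0.768 CPM in WT and at 1.01, 1.63, 1.81 and 1.31 CPM in G793A, a log2 fold change of 0.94 ± 0.32 (SE). Kcne4, a potassium channel subunit gene, was at 0.84 ± 0.30 (SE), Rasal3, a Ras GTPase-activating protein gene of blood cells, at 0.78 ± 0.31 (SE), and Abraxas1, a scaffold of a DNA repair complex, at 0.69 ± 0.42 (SE). Rasal3 had a genotype difference of 1.89 on PLX3397 and 2.13 on PLX5622. On these diets the pan-myeloid genes had medians of 1.52 and 1.77. Whether the Rasal3 values there bear on its control-chow difference was not tested.

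Over all genes tested, without these limits, the lowest log2 fold change was -9.4. Within them Stard9, a kinesin-family gene, had the lowest value, -1.60 ± 0.82 (SE). It was at 6.54, 4.81 and 11.2 CPM in WT and at 4.76, 4.09, 0.0657 and 0.611 CPM in G793A. The G793A libraries fell into a pair just under WT and a pair near 0. Arhgap6, a GTPase-activating protein gene, was at -1.25 ± 0.56 (SE), Vmn2r65, a vomeronasal receptor gene whose family holds near-identical copies, at -0.90 ± 0.27 (SE), and Cdh23, a cadherin gene of sensory hair cells, at -0.90 ± 0.31 (SE), with WT replicate 3 far above the other WT libraries. Nrap, a gene for a nebulin-related protein of muscle, was at 1.47, 1.40 and 1.83 CPM in WT and at 0.859, 1.12, 0.624 and 0.794 CPM in G793A, a log2 fold change of -0.87 ± 0.24 (SE, edgeR adjusted p = 0.358). It was also lower on PLX3397 (-0.54 ± 0.22, SE) and PLX5622 (-0.49 ± 0.22, SE).

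The genes beside Csf1r on its chromosome had fold changes around 0. Of the 10 genes on each side, by RefSeq order on an assembly other than that of the counts, 18 of 20 were tested, with a median log2 fold change of -0.03, and 3 had an unadjusted p under 0.05, 1 higher and 2 lower, against 11.1% of all genes. Without G793A replicate 2, Rps14 (0.53) and Ppargc1b (-0.47) passed in edgeR. Ppargc1b, a coactivator of mitochondrial genes, was at 9.08, 10.3 and 9.26 CPM in WT and at 6.35, 8.31, 6.57 and 7.76 CPM in G793A, without overlap, a log2 fold change of -0.39 ± 0.11 (SE, edgeR adjusted p = 0.358) that was the same with the trend removed. Its genotype difference was -0.16 ± 0.10 (SE) on PLX3397 and 0.01 ± 0.10 (SE) on PLX5622. Tcof1, a nucleolar protein gene, was at -0.17 ± 0.08 (SE), and Rps14, a ribosomal protein gene, at 0.43 ± 0.14 (SE), which was 0.27 with the trend removed. The genes next to Csf1r on either side, Pdgfrb and Hmgxb3, were at 0.09 and -0.06.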

How the data were processed

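The authors deposited estimated counts per gene symbol (expected counts, not scaled to library size) and a second table of variance-stabilised values on a log2 scale. Build GRCm39, kallisto 0.46.1, FastQC 0.11.9 and DESeq2 1.26.0 appear in the submitters' processing notes. How transcripts were summed to genes was not given in the sources at hand. Per the labels' protocols, RNA came from an RNeasy mini kit, and stranded mRNA libraries selected with oligo-dT were sequenced on a NovaSeq instrument. Of the deposited count values, 45.3% were not whole, and all were rounded. A blank-named entry with 0.00828% to 0.0151% of a library's counts was left out of 22310 named genes.

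The test was edgeR 4.0.16 under R 4.3.3 (scaling by TMM, filterByExpr at a minimum count of 10 and total of 15, robust quasi-likelihood F test, two-sided, 1 term per group over all 23 libraries, which share the estimate of spread, and Benjamini-Hochberg adjustment over 16209 genes). The common biological coefficient of variation was 0.0998. Printed SE and adjusted p values are from this edgeR model, except where another fit, tool or a permutation test is named beside them. The script was tested on simulated data. List levels are means of log2 CPM with a prior count of 2. Alternatives used DESeq2 1.42.0, limma 3.58.1 with voom and on the deposited log2 values, other filters and scaling, libraries left out, and removal of a natural spline (4 degrees of freedom each) along transcript length and GC content from each library, taken from GENCODE's longest protein-coding transcript. Positions are not printed, because that annotation is on another build.

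The comparison, the gene lists and the alternatives were chosen with earlier results of these data known. Genes named are Csf1r and its ligands, the 10 smallest p in each direction and the 5 largest fold changes without overlap in each direction at a mean of 1 CPM or more (predicted or clone-named genes left out, 37 symbols), and up to 4 members of each list by p. P2ry12, P2ry13, Siglech, Cx3cr1, Tmem119, Folr2, S100a9 and the calls made without replicate 2 were named outside this rule, with their values known. Replicates of a group differed by more than counting noise (chi-square per degree of freedom of 11.8 to 74.4), so that no library was counted as a copy of another. Same-numbered libraries of the groups correlated at 0.042, 0.148 and -0.0595, so the numbers were not taken to pair them.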

Additional observations from a re-analysis of the deposited data

Results flagged for a closer look

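A single library stood apart among the 4 G793A control libraries, by Dixon's criterion, for 5 of 85 gene levels and 6 of 46 list levels examined, where chance marks about 1 in 20. Replicate 3 was at 88.4 CPM for Csf1r against 78.5 to 79.8 CPM in the others, at 22.6 CPM for Csf1 against 20.5 to 20.7 CPM, and at 0.46 CPM for Gnrh1, the gonadotropin-releasing hormone gene, against 0.703 to 0.736 CPM. Replicate 1 was at 22.8 CPM for Tcof1 against 19.3 to 19.5 CPM, and replicate 2 at 92.5 CPM for Kdm7a against 65.4 to 69.5 CPM.

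Among list levels, given as mean log2 CPM against the WT mean, replicate 3 was at 0.06 for reactive astrocytes (others -0.03 to -0.02) and at 0.20 for brain endothelium (others -0.02 to 0.01). Replicate 4 was at 0.23 for the cerebellum (others -0.27 to -0.20) and at -0.23 for the stress and unfolded protein response (others -0.02 to 0.01). Replicate 1 was at -0.20 for proliferation (others 0.04 to 0.08) and at -0.02 for the class III receptor kinases and ligands (others at 0.04).

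Csf1r and Galnt7 were flagged for a genotype difference that changed with diet, by interaction terms in edgeR that 90 genes passed for PLX3397 and 131 for PLX5622. For Csf1r it was 1.88 log2 units higher on PLX3397 (adjusted p = 0.000803) and 2.75 higher on PLX5622 (adjusted p = 5.46e-06) than on control chow. For Galnt7 it was 0.52 higher on PLX5622 (adjusted p = 0.0332). Galnt7 was chosen for its small p on control chow, and that difference enters its interaction.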

How the results depend on the processing

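The count of genes past an adjusted p under 0.05 was 0 with DESeq2, limma on voom weights or on the deposited stabilised values, RLE scaling, no filter, a filter at 1 CPM, a non-robust fit of the dispersion, the 7 control libraries alone and the trend along length and GC removed. With 1 library left out it ranged from 0 to 375, the latter without G793A replicate 2, and was 0 when the trend was removed from that fit too, an alternative chosen after seeing the data. With the replicate number as a block it was 0, in all 23 libraries and in the 7 alone. The difference in mean log2 level of Csf1r ranged from -0.25 to -0.19 with 1 library left out. Of 1611 values for 85 genes under these alternatives, 1568 kept direction and side of the threshold, 38 newly passed (all without G793A replicate 2) and 5 turned. No gene passed in the main fit, so keeping the side meant not passing. Some of the 85 genes were named because they passed without replicate 2, which favours the 38. Over all genes 375 of 16190 passed there. Il34 turned with the trend removed (-0.02), without WT replicate 3 (-0.04) and without G793A replicate 2 with the trend removed (-0.05). Its range was -0.04 to 0.13 with 1 library left out. Flt3l (-0.01) and Dmxl1 (0.05) turned in limma on the stabilised values. The cause was not tested. With 3 and 4 libraries, a permutation p cannot go below 0.0286.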

Other observations

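Of 376 zinc finger genes with symbols that start with Zfp, 12 were higher and 22 lower at an unadjusted p under 0.05, against 5.9% and 5.23% of all genes, with a median log2 fold change of -0.02. With the trend along transcript length and GC content removed, 13 were higher and 9 lower. In the list for stress responses, Xbp1, a factor of the unfolded protein response, was at 82.9, 81.4 and 86.4 CPM in WT and at 76.4, 77.3, 75.2 and 69.6 CPM in G793A, without overlap. Its log2 fold change was -0.16 ± 0.07 (SE), with an edgeR adjusted p of 0.389. The 19 genes of cholesterol synthesis had a median of 0.02 and a range of -0.05 to 0.17. None of them had an unadjusted p under 0.05, against 11.1% of all genes.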
